A study of Mus musculus with 39 samples.

Results

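Cyclin D1 (Ccnd1) and 9 other regulators of the first gap phase of the cell cycle were followed through liver and calf muscle of mice with reduced insulin gene dosage. The 10 genes are the D cyclins Ccnd1, Ccnd2 and Ccnd3, their kinases Cdk4 and Cdk6, the kinase inhibitors Cdkn1a, Cdkn1b and Cdkn2c, the retinoblastoma gene Rb1 and the transcription factor gene Myc. They were picked by symbol, as 10 of the 46517 genes in the tables, with the response of Ccnd1 to diet in liver already known. All 10 had enough counts to be tested in each tissue and in the fit over both tissues.

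The mice were 25-week-old females of a mixed C57BL/6 and 129 background, killed after a 4 h fast. Every mouse carried Ins1-/-, so the insulin gene Ins1 was missing throughout, and the mice were either Ins2+/-, with 1 intact copy of the other insulin gene, or Ins2+/+. They ate diet A (LabDiet 5LJ5) or diet B (Research Diets D12330). Diet A held 4.68 kcal/g, with fat at 25%, carbohydrate at 55% and protein at 20% of its calories, and diet B 5.56 kcal/g, with fat at 58%, carbohydrate at 26% and protein at 16%. Liver and triceps surae muscle gave 5 libraries per genotype and diet, except 4 from Ins2+/+ livers on diet B, which makes 19 livers and 20 muscles. The lack of Ins1 was shared by all groups, and the diets differed in several nutrients at once.

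D-type cyclins bind Cdk4 or Cdk6 and phosphorylate the retinoblastoma protein, which then releases E2F factors that switch on genes of DNA replication. Cdkn2c (p18) binds Cdk4 and Cdk6 directly, whereas Cdkn1a (p21) and Cdkn1b (p27) act mainly on Cdk2 complexes and can also help to assemble cyclin D with its kinase. Most cells of adult liver and muscle are out of the cycle, and in liver cyclin D1 is known to rise when hepatocytes re-enter it, and also with feeding and insulin.

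RefSeq promoter windows, from 250 bases before to 50 after a transcript's start in GRCm38.p6, were found for 6 of the 10 genes, and 2 of them are shown because they carry textbook sites of Myc and p53. The E-box CACGTG, which Myc and its partner Max bind, is in capitals in the Cdk4 window, chr10:127063285-127063584 on the plus strand. Capitals also mark the cores of a pair of p53 half-sites, ACATGT repeated with any 4 bases (NNNN) between. They lie in the window of the upstream Cdkn1a start, chr17:29090729-29091028 on the plus strand. Both motifs read the same on either strand, and neither overlaps the other.
Cdk4: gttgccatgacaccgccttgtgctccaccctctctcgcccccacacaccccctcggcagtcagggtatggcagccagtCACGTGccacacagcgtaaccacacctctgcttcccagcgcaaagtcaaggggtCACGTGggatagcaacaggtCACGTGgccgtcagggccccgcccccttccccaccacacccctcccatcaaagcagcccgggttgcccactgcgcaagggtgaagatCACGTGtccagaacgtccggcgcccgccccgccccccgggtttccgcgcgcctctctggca
Cdkn1a: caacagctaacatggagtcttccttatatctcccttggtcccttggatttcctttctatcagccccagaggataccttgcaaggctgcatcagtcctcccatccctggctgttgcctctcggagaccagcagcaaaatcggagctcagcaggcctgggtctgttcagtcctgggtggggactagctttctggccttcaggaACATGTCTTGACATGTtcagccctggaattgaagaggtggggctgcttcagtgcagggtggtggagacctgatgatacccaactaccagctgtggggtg
The Cdk4 window holds 4 E-boxes, and the Cdk6 window and 1 of the 2 Cdkn2c windows hold 1 each. Of the 32851 windows in the table, 7.15% hold at least 1 and 8 windows, 0.0244%, hold 4 or more. The p53 letters occur in 4 of the 32851 windows, 0.0122%, and the window of the downstream Cdkn1a start does not hold them. These are matches of letters, chosen after the sequences were seen, and binding was not measured.

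Each liver library held 1289185 to 54249731 estimated counts, and each muscle library 1060460 to 13709519. The edgeR biological coefficient of variation was 19.1% in liver and 51.8% in muscle, so a given difference was harder to detect in muscle. Hepatocyte and muscle fibre markers each dominated their own tissue, at 96600 to 148000 CPM summed in liver and 57900 to 114000 CPM in muscle. Transcripts of the islet hormones Iapp, Gcg, Sst and Ppy reached 5 CPM or more in 6 livers and 9 muscles. Some results are given with and without those libraries, and the others only with them. Replicates 2 and 3 of the Ins2+/- livers on diet B were the most alike pair of any group, by a chi-square over its degrees of freedom of 1.09, and the next pair had 2.29. Counting error alone gives a value of about 1. These were also the deepest livers, at 54249731 and 48823009 counts, and the labels do not say whether they come from separate mice. They were kept as separate libraries, so each n, SD and count of livers takes them as 2. Replicate 5 of the Ins2+/+ livers on diet B stood apart from its 3 group mates, at 18.8 to 19.7 by the same measure, where no other pair of livers within a group exceeded 9.8. Without it the Ccnd1 ratio of diet B to diet A was -0.82 ± 0.12 averaged over genotypes and -0.43 ± 0.18 in Ins2+/+ livers, on the log2 scale.

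Ccnd1, the D cyclin that responds most directly to growth signals, had a lower mean on diet B than on diet A in livers of Ins2+/- mice. In Ins2+/+ livers the mean was lower too, but the groups overlapped and the ratio did not pass. Because Ccnd1 was chosen for this difference, its liver diet values are a description without a test. Ccnd1 (ENSMUSG00000070348) lies on the minus strand of GRCm38 chromosome 7, from 144929931 to 144939925.

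Replicates 1 to 5 of the Ins2+/- livers fed diet A had normalised Ccnd1 levels of 110.4, 95.9, 92.2, 114 and 135 CPM. Their diet B counterparts had 57.9, 39, 35.4, 48.4 and 59.4 CPM. The highest diet B liver stood below the lowest diet A liver, so the groups did not overlap.
Ins2+/+ livers fed diet A had 81.6, 59.0, 91.8, 84.6 and 77.3 CPM of Ccnd1. Replicates 2 to 5 fed diet B had 62.0, 48.8, 63.5 and 60.1 CPM. These groups overlapped, because replicate 2 on diet A stood among the diet B livers. Ranges of the diets failed to overlap for 2% of all tested genes in Ins2+/- livers and for 2.11% in Ins2+/+ livers.

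**Figure D1:**
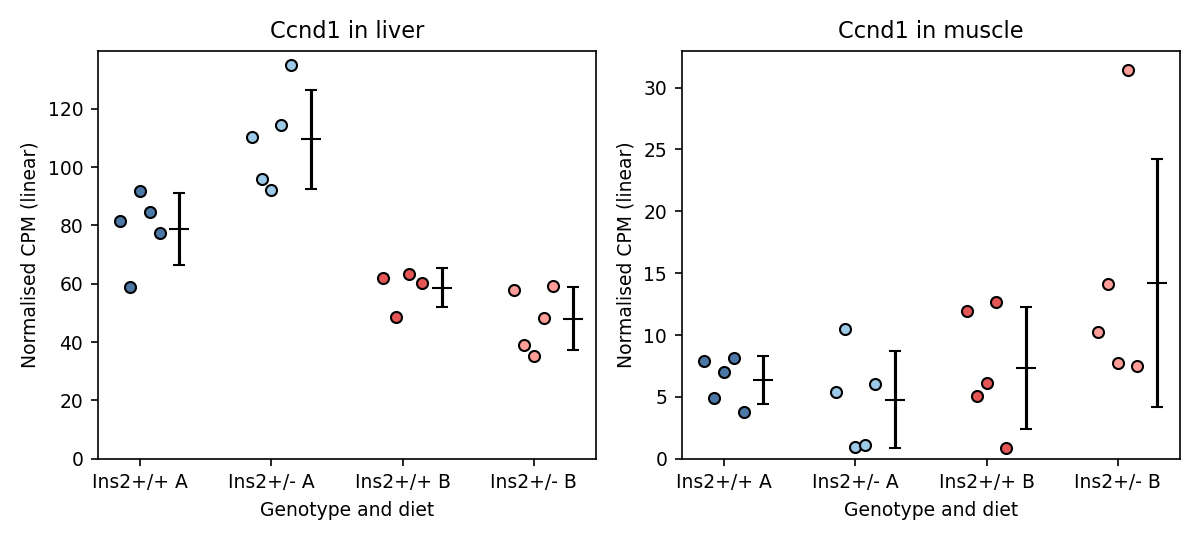
Ccnd1 in every library, as normalised CPM on a linear axis, for liver (left) and muscle (right) by genotype and diet. Points are libraries and the bar beside them gives mean and SD. Ins2+/- livers range from 92.2 to 135 CPM on diet A and from 35.4 to 59.4 CPM on diet B, and no muscle exceeds 31.4 CPM.

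The mean fell from 109.6 ± 17.0 (SD, n = 5) to 48.0 ± 10.8 CPM (SD, n = 5) in Ins2+/- livers and went from 78.9 ± 12.3 (SD, n = 5) to 58.6 ± 6.70 CPM (SD, n = 4) in Ins2+/+ livers. The log2 ratio of diet B to diet A for Ccnd1 was -1.20 ± 0.15 (SE) in Ins2+/- mice, -0.43 ± 0.16 in Ins2+/+ mice, and -0.81 ± 0.11 averaged over the genotypes, 0.57 times the diet A level. All 9 diet B livers lay below the diet A mean of their own genotype. With replicates 2 and 3 of the Ins2+/- livers on diet B taken as 1 library, the ratio in Ins2+/- mice was -1.11 ± 0.15. Without the 6 livers with islet transcripts it was -1.23 ± 0.19, a value that no longer passed. In whole liver, fewer cells of a type and less RNA per cell cannot be told apart.

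Ccnd1 was the only one of the 10 genes to pass in the averaged liver diet comparison and in the one within Ins2+/- mice, where 0.238% and 0.0425% of all tested genes passed. Both counts follow from the choice of Ccnd1. Within Ins2+/+ mice the Ccnd1 diet ratio did not pass in edgeR (quasi-likelihood test, Benjamini-Hochberg adjusted), while all 4 diet B livers lay below the diet A mean. In that comparison 0 of the 10 genes and 0.0425% of all genes passed, with 2 of the 10, Ccnd1 and Myc, at an unadjusted p below 0.05, as were 6.27% of all genes. The choice of Ccnd1 bears on this count. DESeq2 and limma-voom also passed 0 of the 10.

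The Ccnd1 diet ratio in Ins2+/- livers minus that in Ins2+/+ livers was -0.77 ± 0.21 on the log2 scale. It is built from the values for which Ccnd1 was chosen and is given without a p. In edgeR none of 11777 genes passed for this interaction, and 4.8% had an unadjusted p below 0.05. Apart from Ccnd1, none of the 10 genes was among those. DESeq2 and limma-voom passed 0 of the 10 genes, so a dependence on genotype was not shown.

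The Ccnd1 ratio of Ins2+/- to Ins2+/+ livers was above 0 on diet A and below 0 on diet B, and neither passed. Both ratios use the livers whose diet difference led to the choice of Ccnd1, so they are a description and their p-values add no support. On diet A all 5 Ins2+/- livers exceeded all 5 Ins2+/+ livers, the lowest at 92.2 against the highest at 91.8 CPM, and the log2 ratio of Ins2+/- to Ins2+/+ was 0.47 ± 0.15 (adjusted p = 0.285, edgeR). Ranges of the 2 genotypes failed to overlap on diet A for 1.59% of all tested genes. On diet B the ratio was -0.30 ± 0.16 (adjusted p = 1, edgeR) and the ranges overlapped, as they did for all but 2.17% of genes. Over both diets the Ccnd1 ratio was 0.08 ± 0.11 on the log2 scale (adjusted p = 0.858, edgeR). Kupffer cell markers had genotype ratios above 0 for all 9 genes on each diet, with medians of 0.41 on diet A and 0.20 on diet B. Their summed level on diet A, 539 to 864 CPM in Ins2+/- and 430 to 536 CPM in Ins2+/+ livers, did not overlap between genotypes, as for Ccnd1. No Kupffer marker passed, and their part in the Ccnd1 values was not tested.

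Ccnd1 lies 2.251 Mb from the Ins2 gene on chromosome 7, so the background strain around the Ins2 alleles may differ between genotypes and cannot be told apart from the allele itself. Of 75 tested genes within 5 Mb of Ins2, none passed in the averaged genotype comparison of liver, whereas 14 had an unadjusted p below 0.05, against 9.65% of all tested genes. By p, Ccnd1 ranked 51 among those 75 over both diets, 4 on diet A and 7 on diet B. The choice of Ccnd1 bears on its ranks within diet A and within diet B.

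Markers of the cell types that liver can hold were read beside the Ccnd1 diet values, and none passed in the averaged diet comparison. The summed Kupffer cell markers of Ins2+/- livers stood at 539 to 864 CPM with diet A and 468 to 782 CPM with diet B, and those of Ins2+/+ livers at 430 to 536 and 362 to 535 CPM. All 9 Kupffer markers had a diet ratio below 0, with a median of -0.14 on the log2 scale. All 5 tested erythroid markers also had a ratio below 0, with a median of -0.67, and their sum was 192 to 681 CPM with diet A and 146 to 522 CPM with diet B. Hepatocyte, endothelial and stellate marker lists had median diet ratios of -0.03, 0.04 and 0.18, muscle fibre and acinar lists -1.19 and -0.69, and the 5 tested islet markers 2.35. The 2 tested cholangiocyte markers had a median of 0.49, and the single tested lymphocyte and adipocyte markers had 0.35 and -0.06. Their part in the Ccnd1 difference was not tested. Muscle satellite cell markers Myf5, Myod1 and Chodl and the adipocyte marker Plin1 had no count in any liver.

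The other D cyclins did not share the diet difference of Ccnd1 in liver. Ccnd3, the D cyclin common in lymphoid and differentiated cells, had a level of 22.6 to 36.4 CPM over the 19 livers with a median of 28.8 CPM, and its averaged diet ratio was 0.05 ± 0.09 on the log2 scale. Ccnd2, the D cyclin best known from pancreatic beta cells and the ovary, ran from 11.4 to 20.5 CPM in 18 livers and reached 36.3 CPM in replicate 1 of the Ins2+/- livers on diet B. Its averaged diet ratio was -0.03 ± 0.19.

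Summed per kb of exon, the 3 D cyclins came to 28.2 ± 3.25 (SD, n = 5) in Ins2+/- livers on diet A and 15.5 ± 3.14 (SD, n = 5) on diet B. Ccnd1 made up 82.3 ± 3.25% of that sum on diet A and 65.9 ± 6.95% on diet B, with ranges from 79.3% to 87.5% and from 59.6% to 75.2%. In Ins2+/+ livers its share was 77.3 ± 4.00% (SD, n = 5) on diet A and 72.6 ± 2.77% (SD, n = 4) on diet B, with ranges that overlapped. Ccnd1 remained the largest of the 3 in every liver.

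**Figure D2:**
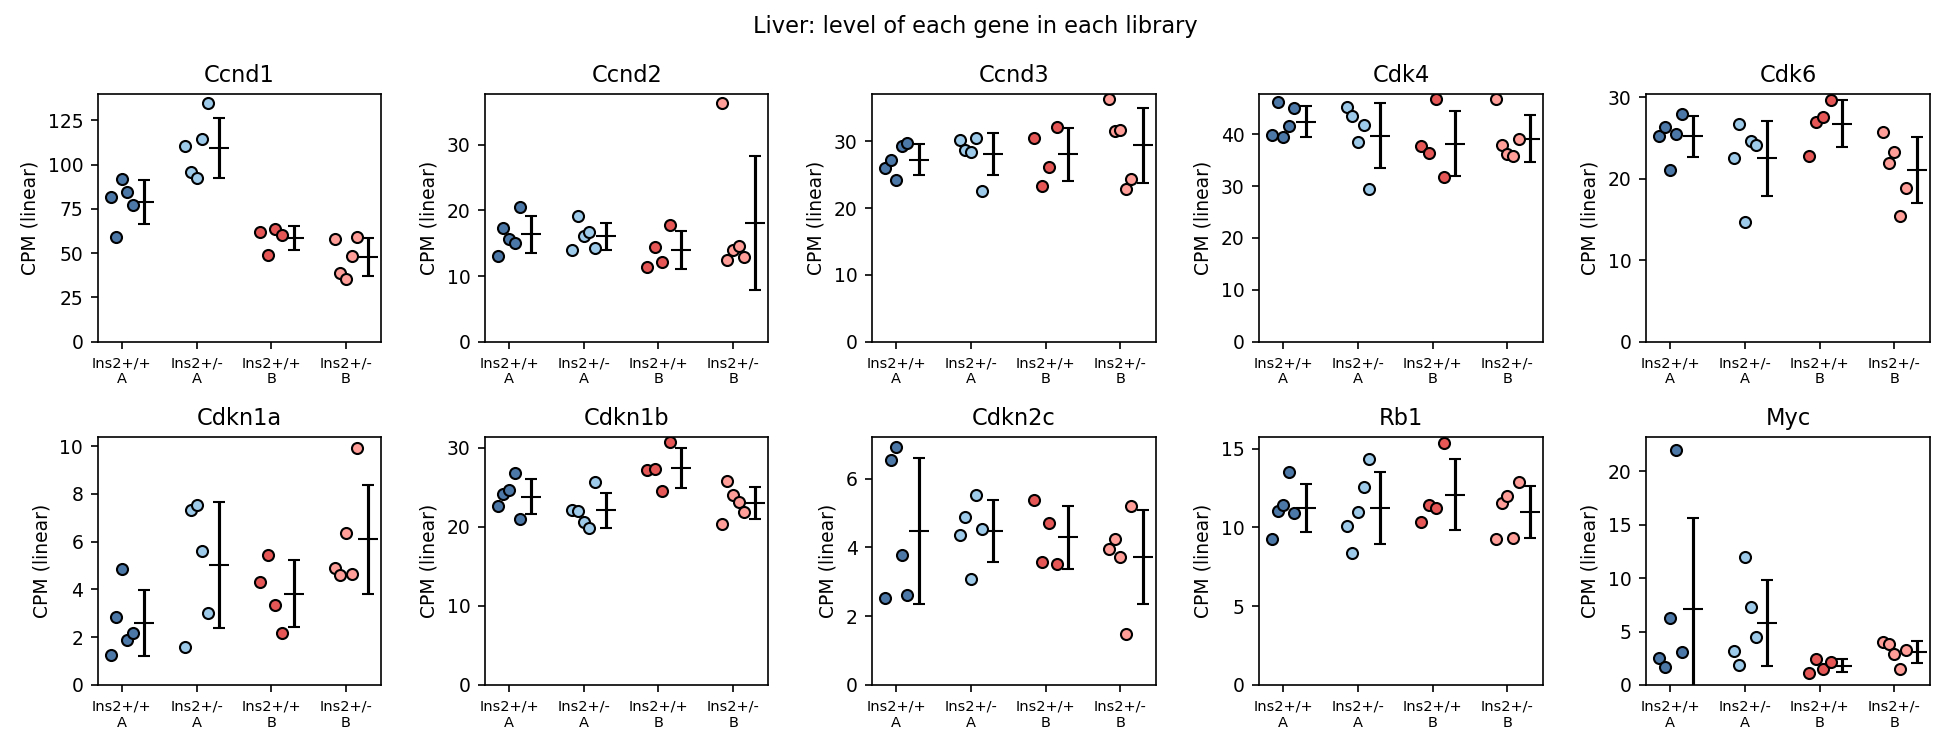
Level of each of the 10 genes in every liver, as normalised CPM on linear axes that start at 0, by genotype (Ins2+/+ or Ins2+/-) and diet (A or B). Points are libraries and the bar beside them is mean and SD. Ccnd1 separates by diet in Ins2+/- livers, Ccnd2 has 1 liver at 36.3 CPM, and Myc has 1 liver at 22.0 CPM.

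The kinases were steady in liver. Cdk4, the main partner of cyclin D1, had 29.4 to 46.9 CPM with a median of 39.5 CPM, and its averaged diet ratio was -0.10 ± 0.08 on the log2 scale. Cdk6, its close relative, had 14.7 to 29.7 CPM with a median of 24.6 CPM and a diet ratio of 0.00 ± 0.10. Between genotypes the Cdk6 ratio was -0.23 ± 0.10 averaged over diets, with 9 of 10 Ins2+/- livers below the Ins2+/+ mean of their diet, and it did not pass (adjusted p = 0.478, edgeR quasi-likelihood test).

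Among the inhibitors, Cdkn1a, a target of p53, showed the widest liver range relative to its level. With diet A it had 1.27, 2.86, 4.85, 1.89 and 2.18 CPM in Ins2+/+ livers and 1.58, 7.35, 7.54, 5.6 and 3.02 CPM in their Ins2+/- counterparts. With diet B the Ins2+/+ livers had 4.30, 5.46, 3.34 and 2.16 CPM of Cdkn1a, and the Ins2+/- livers 4.90, 4.60, 6.37, 4.67 and 9.94 CPM. The genotypes overlapped on both diets, although 9 of 10 Ins2+/- livers stood above the Ins2+/+ mean of their diet. The genotype ratio of Cdkn1a averaged over diets was 0.81 ± 0.28 on the log2 scale and did not pass (adjusted p = 0.393, edgeR), and these values rest on counts of 4 to 311 per liver.

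Cdkn1b, an inhibitor that holds resting cells out of the cycle, had 19.9 to 30.8 CPM in liver with a median of 24.0 CPM. Its genotype ratio was -0.19 ± 0.07 on the log2 scale (adjusted p = 0.416, edgeR), with 9 of 10 Ins2+/- livers below the Ins2+/+ mean of their diet, and its diet ratio was 0.15 ± 0.07. Cdkn2c had 1.48 to 6.93 CPM and ratios of -0.09 ± 0.22 for genotype (adjusted p = 0.952, edgeR) and -0.18 ± 0.22 for diet. Rb1, the target of the cyclin D kinases, had 8.37 to 15.4 CPM, a genotype ratio of -0.07 ± 0.12 and a diet ratio of 0.05 ± 0.11. The adjusted p of the Rb1 genotype ratio, 0.991 in edgeR, is that of a Poisson test, which edgeR uses where it gives the higher p.

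In the averaged liver genotype comparison 0 of the 10 genes passed, with 0.00849% of all tested genes passing. Cdk6, Cdkn1a and Cdkn1b had an unadjusted p below 0.05 there, as had 9.65% of all genes, and DESeq2 and limma-voom passed 0 of the 10. On diet A and on diet B alone 0 of the 10 passed as well, with 0.00849% and 0% of all genes passing. Ccnd1 and Cdkn1a on diet A, and Cdk6 and Cdkn1b on diet B, had an unadjusted p below 0.05, beside 10.1% and 4.25% of all genes. The choice of Ccnd1 bears on the count for diet A. DESeq2 and limma-voom passed 0 of the 10 on either diet.

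Myc, a transcription factor that drives growth and cell-cycle entry, was the other gene with a large averaged diet ratio in liver. Ins2+/+ livers fed diet A had 2.53, 1.64, 6.24, 22.0 and 3.06 CPM, and those fed diet B 1.08, 2.39, 1.52 and 2.16 CPM. Ins2+/- livers had 3.16, 1.84, 12, 7.34 and 4.52 CPM of Myc with diet A, and with diet B 4.05, 3.82, 2.89, 1.48 and 3.23 CPM. The diets overlapped in both genotypes, and the diet A livers spread far more than the diet B livers.

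The averaged Myc diet ratio was -1.40 ± 0.43 on the log2 scale, and -0.85 without replicate 4 of the Ins2+/+ livers on diet A, the one at 22.0 CPM. It did not pass. Within Ins2+/+ mice the ratio was -1.96 ± 0.67 (adjusted p = 0.539, edgeR), and -0.85 without that liver. Liver Myc counts were 5 to 206 per library, so single livers were known only coarsely.

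**Figure D3:**
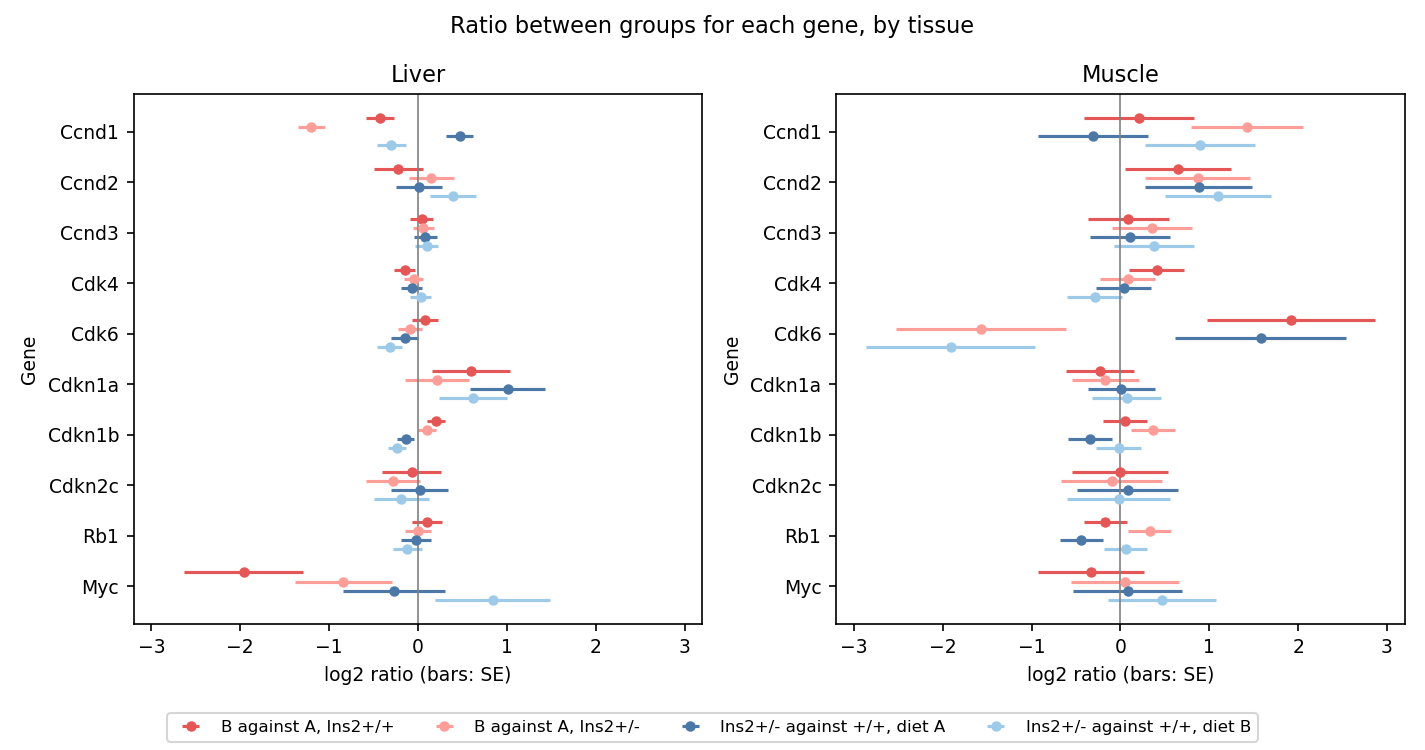
Log2 ratio of each of the 10 genes in 4 comparisons, diet B against A within each genotype and Ins2+/- against Ins2+/+ within each diet, in liver (left) and muscle (right). Points are edgeR estimates and bars are SE. Bars are shorter in liver than in muscle for every gene except Cdkn1a and Myc, whose bars are of similar length, and the Ccnd1 diet ratio in Ins2+/- mice is -1.20 in liver and 1.42 in muscle.

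Genes that act with or downstream of the 10 were read from fixed lists, and 1 gene passed in the averaged liver diet comparison, where 0.238% of all genes passed. Of 17 tested genes of other G1 machinery none passed, with 4 at an unadjusted p below 0.05, where 12.8% of all tested genes were. The 2 of lowest p were Cdkn2d, an inhibitor of Cdk4 and Cdk6, with a ratio of 0.96 ± 0.33, and Ccne2, a cyclin E gene, with 0.70 ± 0.29 on the log2 scale. Cdkn2d had means of 1.41 and 3.06 CPM with diets A and B in Ins2+/- livers and 1.66 and 2.89 CPM in Ins2+/+ livers, and all 9 diet B livers stood above the diet A mean of their genotype.

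None of 17 tested DNA replication genes passed in that comparison and none had an unadjusted p below 0.05, and their median ratio was 0.05 on the log2 scale beside 0.00 for all genes. Pola1, a subunit of the polymerase that primes replication, had a ratio of 0.24 ± 0.15. Of 18 mitosis genes only 4 had enough counts to be tested in liver and 3 in muscle, and none passed, with Mki67 at 0.29 ± 0.27 and Kif11 at -0.10 ± 0.38 in liver.

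The gene that passed was Btg2, a p53 target that restrains cell growth. Ins2+/+ livers had 14.4 ± 6.89 CPM of Btg2 (SD, n = 5) with diet A and 77.1 ± 76.9 CPM (SD, n = 4) with diet B. Ins2+/- livers had 8.61 ± 3.26 and 30.8 ± 20.0 CPM (SD, n = 5 each). The diet ratio was 2.12 ± 0.37 on the log2 scale, and all 9 diet B livers stood above the diet A mean of their genotype. Replicate 3 of the Ins2+/+ livers on diet B had 191.5 CPM, and without it that group stood at 38.9 ± 12.0 CPM (SD, n = 3) and the diet ratio at 1.63 ± 0.29, which still passed. Btg2 was 1 of 16 tested p53 targets. Of the 16, 10 had a ratio above 0, and the median was 0.23 beside 0.00 for all genes. Counted in either direction, 7 of the 16 had an unadjusted p below 0.05, beside 12.8% of all genes. Cdkn1a itself had 0.40 ± 0.28.

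Myc partners and antagonists (9 tested), Myc targets (14), Wnt targets of the liver lobule (14) and genes of cyclin D turnover (11) gave no gene that passed for liver diet. The numbers with an unadjusted p below 0.05 were 2, 4, 3 and 1, beside the same 12.8% of all genes, and the median ratios 0.03, 0.00, -0.08 and 0.02. Mnt, which competes with Myc for Max, had 0.39 ± 0.16 and Mlx -0.16 ± 0.08. Among Myc targets, the ribosome assembly genes Ppan and Nop58 had ratios of -0.57 ± 0.15 and -0.32 ± 0.11, and all 9 diet B livers stood below the diet A mean for each.

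Rhbg, an ammonium transporter of hepatocytes around the central vein, had a liver diet ratio of -0.70 ± 0.19 and Notum, a secreted Wnt inhibitor, -0.19 ± 0.08. Dyrk1b, a kinase that phosphorylates cyclin D1 for breakdown, had 0.46 ± 0.11 (adjusted p = 0.0605, edgeR). Its mean level was 8.38 and 13.2 CPM on diets A and B in Ins2+/- livers and 13.1 and 15.7 CPM in Ins2+/+ livers. Gsk3a had -0.11 ± 0.07. In the averaged liver genotype comparison none of the 8 lists held a gene that passed. All 14 Myc targets had a ratio above 0 there, with a median of 0.13 beside 0.00 for all genes. Of them 3 were at an unadjusted p below 0.05, beside 9.65% of all genes. On diet A alone 8 of the 14 were above 0, with a median of 0.02, and on diet B all 14, with a median of 0.18.

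Among the genes most like Ccnd1 over the 19 livers were Rfng, a glycosyltransferase acting on Notch (Pearson r = 0.870), Dbi, an acyl-CoA binding protein (0.822), Scpep1, a carboxypeptidase (0.812), and Gm2a, a lysosomal lipid cofactor (0.808). Within groups, after removing group means, r was 0.643, 0.541, 0.466 and 0.460 for these genes. Their averaged diet ratios were -0.36, -0.57, -0.29 and -0.47, all below 0. The libraries share diet, depth and scaling, and these correlations are descriptions. Of the other 9 G1 regulators, Myc was nearest to Ccnd1 in liver at r = 0.406 and Cdkn1b farthest at -0.304.

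Muscle gave the lowest Ccnd1 levels and no difference that passed among the 10 genes. With diet A Ccnd1 had 7.92, 4.93, 6.98, 8.18 and 3.79 CPM in Ins2+/+ muscles and 5.38, 10.5, 0.984, 1.12 and 6.01 CPM in Ins2+/- muscles. With diet B it had 11.9, 5.04, 6.09, 12.7 and 0.904 CPM in Ins2+/+ muscles and 10.2, 14.1, 7.78, 31.4 and 7.48 CPM in Ins2+/- muscles. All groups overlapped, and counts were 1 to 147 per muscle.

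The muscle Ccnd1 diet ratio was 0.82 ± 0.44 averaged over genotypes (adjusted p = 0.999, edgeR) and 1.42 ± 0.63 in Ins2+/- mice (adjusted p = 0.951, edgeR), opposite in sign to liver. Without replicate 4 of the Ins2+/- muscles on diet B, the highest, the averaged ratio was 0.57. That muscle also held pancreatic acinar transcripts at 25200 CPM, the most of any library, with cholangiocyte markers at 579 CPM and muscle fibre markers at 57900 CPM, the fewest of any muscle. The part of these transcripts in its Ccnd1 level was not tested.

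The difference between tissues in the Ccnd1 diet ratio was -1.48 ± 0.40 on the log2 scale, given without a p because it rests on the liver diet values. In edgeR none of 13714 genes passed for tissue by diet or tissue by genotype, where 5.12% and 4.93% had an unadjusted p below 0.05. For tissue by diet, Myc was the only one of the 10 genes apart from Ccnd1 at an unadjusted p below 0.05. DESeq2 and limma-voom passed 0 of the 10.

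Ccnd2 stood out in muscle because its highest levels were in the muscles with the most islet hormone transcripts. In the 4 muscles with 1635 to 6807 CPM of summed Iapp, Gcg, Sst and Ppy, Ccnd2 was at 44.7 to 128 CPM. In the other 16 muscles, with at most 635 CPM of these transcripts, it was at 7.31 to 22.6 CPM. The ranges did not overlap, and the 1 liver over 1000 CPM of islet transcripts, at 1636 CPM, had the highest liver Ccnd2, 36.3 CPM, where the other 18 had 11.4 to 20.5 CPM. Among the other 16 muscles, the highest Ccnd2, 22.6 CPM in replicate 4 of the Ins2+/- group on diet A, came with 2.2 CPM of islet transcripts. Replicate 3 of the Ins2+/+ muscles on diet A, at 635 CPM of islet transcripts, had 17.3 CPM of Ccnd2. The separation above 1000 CPM was noticed after the values were seen. How many of all genes separate in the same way was not counted.

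**Figure D4:**
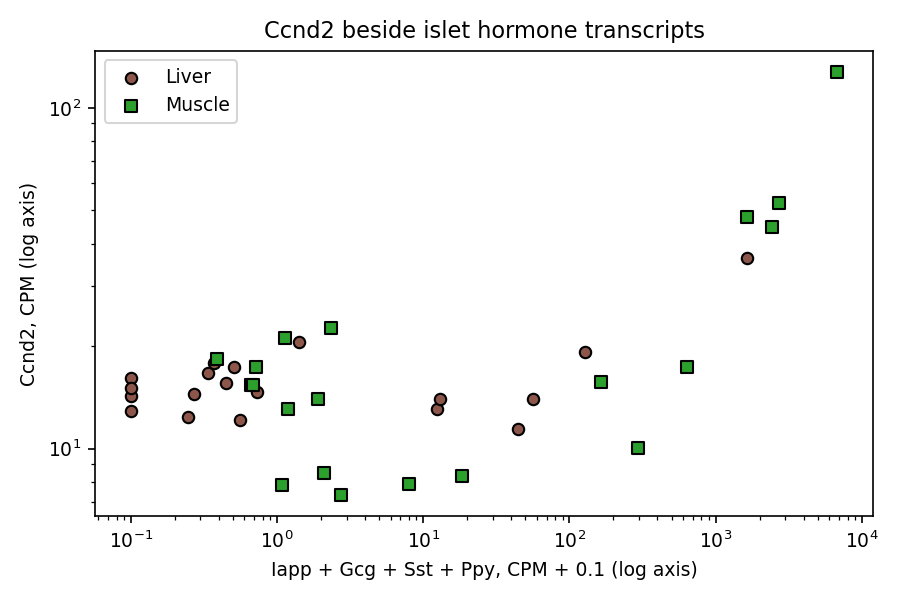
Ccnd2 in normalised CPM against the summed CPM of the islet hormone transcripts Iapp, Gcg, Sst and Ppy (plus 0.1), both on log axes, for 19 livers and 20 muscles. Each point is a library. The 5 libraries above 1000 CPM of islet transcripts have 36.3 to 128 CPM of Ccnd2, and the other 34 have 7.31 to 22.6 CPM.

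The Ccnd2 genotype ratio in muscle, Ins2+/- to Ins2+/+, was 0.99 ± 0.42 averaged over diets (adjusted p = 0.999, edgeR) and 0.37 ± 0.33 without the 9 muscles with islet transcripts. Its diet ratio was 0.76 ± 0.42 (adjusted p = 0.999, edgeR) and 0.03 ± 0.33 without them. The islet-rich muscles were 2 Ins2+/- on diet B, 1 Ins2+/- on diet A and 1 Ins2+/+ on diet B. Ccnd1 and Ccnd3 in these 4 muscles, at 6.09 to 31.4 and 9.14 to 18.2 CPM, overlapped the other 16, at 0.904 to 12.7 and 0 to 16.6 CPM.

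Ccnd3 in muscle was at 0 to 18.2 CPM with a median of 13.6 CPM. Its single 0, in replicate 3 of the Ins2+/- muscles on diet A, allows a level of up to 2.95 CPM by counting error alone, at 3 counts. Cdk4 was at 12.0 to 38.7 CPM in muscle with a median of 17.9 CPM. The averaged diet ratios of Ccnd3 and Cdk4 in muscle, 0.22 ± 0.32 and 0.24 ± 0.22, both had an adjusted p of 0.999 in edgeR.

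Cdk6 was the scarcest of the 10 genes in muscle, with counts of 0 to 48. Ins2+/+ muscles had 3.10, 2.34, 0, 0.292 and 0.223 CPM with diet A, and with diet B 2.48, 5.46, 7.26, 0.976 and 7.23 CPM. Ins2+/- muscles had 2.41, 3.42, 8.85, 1.40 and 3.28 CPM with diet A, and with diet B 2.09, 0, 1.28, 0.828 and 1.52 CPM. The groups overlapped, with the higher values on diet B in Ins2+/+ muscles and on diet A in Ins2+/- muscles.

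The 2 counts of 0 for Cdk6 allow up to 0.838 CPM in the Ins2+/+ muscle and 1.41 CPM in the Ins2+/- muscle. The Cdk6 diet ratio was 1.92 ± 0.95 in Ins2+/+ muscles and -1.57 ± 0.96 in Ins2+/- muscles on the log2 scale. Their interaction of -3.49 ± 1.35 had an unadjusted p of 0.0162 and an adjusted p of 1 in edgeR, where 3.24% of all genes had an unadjusted p below 0.05 and none passed.

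The inhibitors, Rb1 and Myc varied in muscle without a difference that passed. Cdkn1a ran from 8.85 to 45.5 CPM, with diet and genotype ratios of -0.20 ± 0.27 and 0.04 ± 0.27 on the log2 scale. Cdkn1b ran from 15.7 to 53.1 CPM, with 0.21 ± 0.18 and -0.18 ± 0.18, and Rb1 from 16.7 to 54.8 CPM, with 0.08 ± 0.17 and -0.19 ± 0.17. Cdkn2c ran from 0 to 13.9 CPM, with -0.05 ± 0.40 and 0.03 ± 0.40, and Myc from 2.24 to 20.7 CPM, with -0.14 ± 0.43 and 0.28 ± 0.43. All of these had an adjusted p of 0.999 in edgeR.

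In the averaged muscle comparisons 0 of the 10 genes passed, with 0.00836% of all tested genes passing for diet and 0% for genotype. At an unadjusted p below 0.05 there were none of the 10 for diet and 1, Ccnd2, for genotype, beside 3.8% and 3.24% of all genes. DESeq2 and limma-voom passed 0 of the 10 in both. Within a single genotype or diet 0 of the 10 passed by any of these tools. At an unadjusted p below 0.05 stood Ccnd1 for diet in Ins2+/- muscles, beside 4.82% of all genes, and none of the 10 for diet in Ins2+/+ muscles (2.5%), genotype on diet A (1.67%) or genotype on diet B (4.54%). The 8 lists also gave no gene that passed in either comparison. The lowest unadjusted p for muscle diet in a list were those of Nop56, a Myc target, at 0.54 ± 0.20 and of Mlxipl, the glucose-responsive factor ChREBP, at -0.45 ± 0.17 on the log2 scale.

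The genes most like Ccnd1 over the 20 muscles were Slc6a13 (Pearson r = 0.851), Slc24a2 (0.850), Srpk2 (0.841), Inhbb (0.835) and Rab24 (0.827). None of these was among the 5 by Spearman's rho, and none was among the 5 of liver. Among the other 9 G1 regulators Ccnd2 was nearest to Ccnd1 in muscle at r = 0.479, and Cdk6 farthest at -0.437.

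Liver and muscle differed in 9 of the 10 genes, with cyclin and kinase genes higher in liver and inhibitor genes, Rb1 and Myc higher in muscle. In that comparison 77.8% of all tested genes passed, 38% higher and 39.8% lower in liver, so a count of 9 in 10 is close to the background. Livers and muscles may come from the same mice, which the labels do not tie together, and the fit took the 39 libraries as independent. Upper-quartile or RLE scaling moved the median gene from -0.04 to -0.14 or 0.12 on the log2 scale, and none of the 9 changed direction.

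The cyclin genes and kinases higher in liver were Cdk6, with a log2 ratio of liver to muscle of 3.31 ± 0.24 (adjusted p = 2.89e-15), and Ccnd1 with 3.15 ± 0.21 (adjusted p = 7.18e-17), both in edgeR. Ccnd3 had 1.15 ± 0.15 and Cdk4 1.00 ± 0.12, with adjusted p of 1.07e-08 and 7.75e-10 in edgeR. The lowest liver Ccnd1, 35.4 CPM, exceeded the highest muscle Ccnd1, 31.4 CPM, and liver also stood clear of muscle for Cdk6 and Ccnd3.

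Of the genes higher in muscle, Cdkn1a had a liver to muscle ratio of -2.68 ± 0.21 (adjusted p = 3.09e-14, edgeR) and Rb1 -1.64 ± 0.11 (adjusted p = 5.02e-16, edgeR). Rb1 was the only one of the 10 for which all 20 muscles, from 16.7 CPM, stood above all 19 livers, up to 15.4 CPM. Between tissues, 26.9% of all tested genes had ranges that did not overlap, beside 4 of the 10. CPM was scaled within each tissue, and the gaps of Rb1 and Ccnd1 were narrow. Whether these separations hold under another scaling was not tested. Cdkn2c had -0.77 ± 0.24 and Cdkn1b -0.58 ± 0.11, with adjusted p of 0.00352 and 5.32e-06 in edgeR. Myc had -1.09 ± 0.31 (adjusted p = 0.00189, edgeR), and -0.81 ± 0.39 without the libraries with islet transcripts, where it missed the threshold (adjusted p = 0.064).

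Ccnd2 had a liver to muscle ratio of -0.51 ± 0.25 and did not pass (adjusted p = 0.0612, edgeR), although all 10 genes, and 79% of all genes, were at an unadjusted p below 0.05. Without the libraries with islet transcripts the ratio was -0.04 ± 0.17. Cdk4, whose promoter window holds the 4 E-boxes shown above, was higher in liver. Myc was lower there, a difference that missed the threshold without the libraries with islet transcripts. Whether Myc acts on Cdk4 in these tissues was not tested. Between the tissues 38% of all genes passed as higher in liver and 39.8% as lower. Of the 14 Myc targets, 4 were higher in liver and 5 lower, with Srm at 1.14 ± 0.19 and Ldha at -2.02 ± 0.10. Of 18 p53 targets, 5 were higher in liver and 10 lower, the same direction as Cdkn1a, with Phlda3 at -6.82 ± 0.25, Ccng1 at -4.62 ± 0.09 and Perp at 5.24 ± 0.25.

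**Figure D5:**
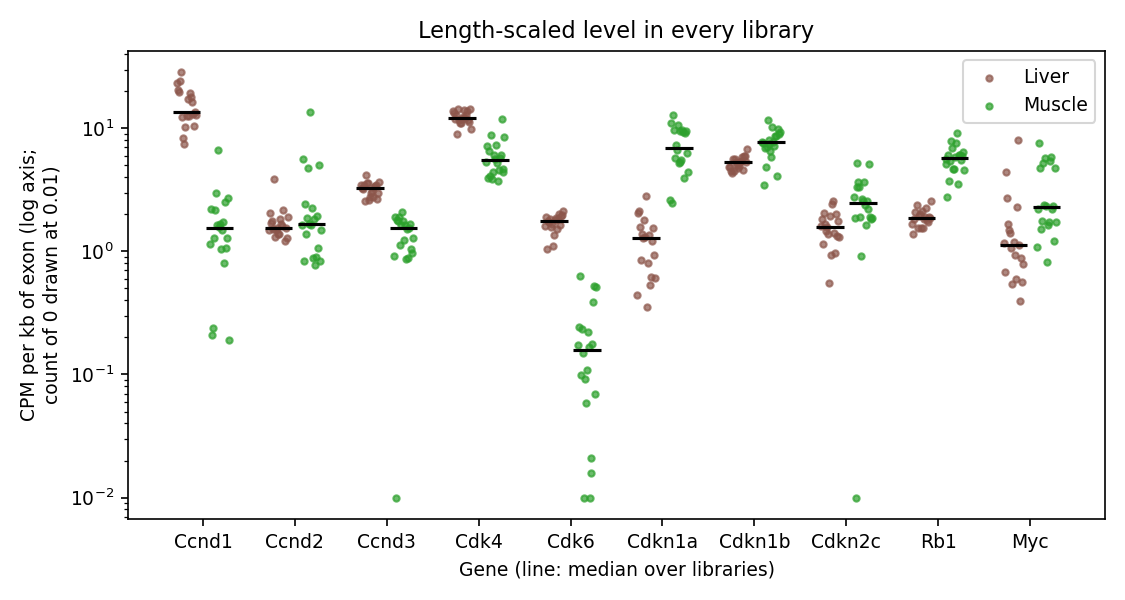
Level of each of the 10 genes in every library as CPM per kb of exon, on a log axis, for 19 livers and 20 muscles, with counts of 0 drawn at 0.01. Points are libraries and lines are medians. Ccnd1 has the highest liver median, 13.5, and Cdk6 the lowest muscle median, 0.158.

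Genes of other cell-cycle lists also differed between tissues, as did 77.8% of all tested genes, 38% higher and 39.8% lower in liver. Of 19 tested genes of other G1 machinery 6 were higher in liver and 11 lower, among them the atypical repressor E2f8 at 4.56 ± 0.45 and Cdkn2d at -1.99 ± 0.33. Of 18 tested DNA replication genes 12 were higher in liver and 3 lower, with Tk1, a thymidine kinase, at 2.41 ± 0.21 and Cdt1, the origin licensing factor, at 3.96 ± 0.47. Their median ratio was 1.15 on the log2 scale beside -0.04 for all genes. Of 8 tested mitosis genes 2 were higher and 3 lower, with Birc5 at 2.84 ± 0.56 and Aurka at -3.97 ± 0.21.

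Of the 14 tested Wnt targets of the liver lobule 13 were higher in liver, where 38% of all genes were. That list was drawn up from genes of the liver lobule, so this count follows largely from the choice. Of 11 genes of cyclin D turnover 4 were higher and 5 lower, the latter beside 39.8% of all genes. Cryab, a chaperone abundant in muscle, had -8.06 ± 0.23 and Dyrk1b -2.08 ± 0.12. Of 9 Myc partners and antagonists 4 were higher in liver, Mlxipl at 2.17 ± 0.11 among them, and 2 lower, Mlxip at -3.53 ± 0.12 and Mxi1 at -1.14 ± 0.10.

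By level per kb of exon, the order of medians in liver was Ccnd1 at 13.5, Cdk4 at 12.2, Cdkn1b at 5.28, Ccnd3 at 3.28, Rb1 at 1.87, Cdk6 at 1.76, Cdkn2c at 1.57, Ccnd2 at 1.56, Cdkn1a at 1.29 and Myc at 1.12. Cdk4 exceeded Cdkn1b, Cdkn1b exceeded Ccnd3 and Ccnd3 exceeded Rb1 in all 19 livers. Ccnd1 exceeded Cdk4 in 12 of 19 livers, with overlapping ranges, and with the longest transcript as the length Cdk4 came first. The neighbours from Rb1 down to Myc overlapped in range, so their order is not firm.

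In muscle the order of medians per kb of exon was Cdkn1b at 7.70, Cdkn1a at 6.97, Rb1 at 5.75, Cdk4 at 5.50, Cdkn2c at 2.48, Myc at 2.27, Ccnd2 at 1.66, Ccnd3 at 1.55, Ccnd1 at 1.54 and Cdk6 at 0.158. The first 4 did not separate from one another, but Cdk4 exceeded Cdkn2c in 19 of 20 muscles. The 3 D cyclins were nearly level, and Ccnd1 exceeded Cdk6 in 18 of 20 muscles. Ccnd1, first of the 10 in liver, was ninth in muscle, and Cdkn1a, ninth in liver, was second in muscle. With the longest transcript as the length Cdkn1a came first in muscle.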

How the data were processed

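RNA was extracted from liver and from the triceps surae, the calf muscle group. Per the labels' protocols, TruSeq RNA version 2 libraries, which do not mark strand, were made from 400 ng of RNA and sequenced over 2 rapid-run lanes of a HiSeq 2500; the lane of each library is not given in the sources used here. The authors' deposited tables hold estimated counts per gene, and the submitters' processing notes name bcl2fastq 1.8.4, kallisto 0.42.3, GRCm38 and DESeq2 without giving a role for DESeq2. Because kallisto shares ambiguous reads between transcripts, the values can be fractional, and they were rounded before any test.

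Gene names and positions were taken from GENCODE mouse release 21 on GRCm38, where 46005 of 46517 identifiers matched. Identifiers without a match held 0.264% of counts. Groups came from the sample labels. The fit of each tissue used edgeR 4.0.16 in R 4.3.3 with TMM scaling, filterByExpr by group, a common residual spread for the 4 groups and the quasi-likelihood test, with 15 residual degrees of freedom in liver and 16 in muscle. A fit over all 39 libraries compared the tissues (31 residual degrees of freedom), with no term for mice that may have given both tissues. Benjamini-Hochberg adjustment ran over all genes tested, 11777 in liver, 11959 in muscle and 13714 in both, and a gene passed below 0.05. Each SE was obtained from the log2 ratio and its F statistic, and for some genes with little spread edgeR reports the higher p of a Poisson test instead. Levels are CPM, counts scaled to library size, after TMM scaling within each tissue. Levels compared between genes are CPM per kb of the gene's merged exons. Simulated counts were used to test only the edgeR fit of each tissue, for the averaged diet comparison.

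The 10 genes, the pathway and marker lists and the tests were chosen with earlier results of these data known. A comparison in which Ccnd1 itself passed in liver therefore carries no p-value for the 10 genes, and no p-value is given for Ccnd1 where its liver diet values enter another diet comparison or an interaction. The liver genotype ratios of Ccnd1 within a diet use the same livers and are a description. All 10 genes were named in every comparison. Of each list, up to 4 genes that passed were named by lowest adjusted p, or else the 2 of lowest p in the averaged diet comparison of that tissue, in the text or as part of the counts. The 5 genes most like Ccnd1 were those of highest Pearson r in log2 CPM with a prior count of 2. Some genes that these rules select are not reported here. The labels do not say that replicates are separate animals, so p-values measure the spread between these samples. Alternatives were DESeq2 1.42.0, limma 3.58.1 voom with sample weights, RLE and upper-quartile scaling, no filter, a stricter filter (mean count of 20, and 1 CPM in 4 libraries), robust dispersion, an adjusted p below 0.1, the replicate number as a block, only the groups compared, each library left out, 2 alike livers taken as 1, and no libraries with islet transcripts at 5 CPM or more; the last was added after the data were seen for the fit over both tissues. Replicate numbers were not taken as pairs in the main fits. Deviations of same-numbered libraries correlated with a mean r of 0.0386 in liver and 0.0644 in muscle, against -0.00935 and -0.0144 for other libraries. In liver 7 of 19 and in muscle 7 of 20 libraries were most like one of their own number. Whether the numbers mark something shared was not tested. Promoter sequences came from RefSeq's GRCm38.p6 table.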

Additional observations from a re-analysis of the deposited data

Results flagged for a closer look

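Each gene in each group of libraries was screened for a highest or lowest library far from the others, by Dixon's ratio of the gap to the group's range. Of 80 such groups 11 were picked out. The cut-off picks out about 1 in 20 where values follow a normal distribution, which was not checked for these CPM. The share over all genes was not counted, so the 11 are a description and no excess is shown.

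Ccnd2 gave 3 of them: 36.3 CPM in replicate 1 of the Ins2+/- livers on diet B, where the next liver had 14.6 CPM, 128 CPM in replicate 4 of the Ins2+/- muscles on diet B, next 44.7 CPM, and 47.8 CPM in replicate 3 of the Ins2+/+ muscles on diet B, next 18.4 CPM. All 3 libraries held islet hormone transcripts at 1635 CPM or more.

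Ccnd1 stood apart at 31.4 CPM in replicate 4 of the Ins2+/- muscles on diet B, next 14.1 CPM, the muscle with the most islet and acinar transcripts. Myc stood apart at 22.0 CPM in replicate 4 of the Ins2+/+ livers on diet A, next 6.24 CPM. Cdk4 was highest at 46.9 CPM in replicate 1 of the Ins2+/- livers on diet B, next 39 CPM. Ccnd3 was lowest at 22.6 CPM in replicate 5 of the Ins2+/- livers on diet A, next 28.5 CPM, from 30 counts.

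In muscle, Cdk6 was highest at 8.85 CPM in replicate 3 of the Ins2+/- group on diet A, next 3.42 CPM, from 9 counts. Cdkn1b was highest at 53.1 CPM in replicate 2 of the Ins2+/- group on diet B, next 36.4 CPM. That library had 49.7% of its counts on mitochondrial genes, where the other muscles had 13.7% to 26.8%. In replicate 2 of the Ins2+/+ muscles on diet B, Cdkn1b was lowest at 18.5 CPM, next 39.5 CPM, and Cdkn2c was highest at 13.9 CPM, next 5.97 CPM.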

How the results depend on the processing

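The Ccnd1 liver diet ratio averaged over genotypes stayed between -0.91 and -0.77 under the alternatives. With 1 library left out it stayed between -0.86 and -0.76. It passed in each of these fits, which follows from the choice of Ccnd1 and adds no support. In Ins2+/- livers it stayed between -1.44 and -1.11, and between -1.29 and -1.10 with 1 library left out. Without the libraries with islet transcripts, which leaves 3 livers a diet, the number of the 10 genes passing in Ins2+/- livers went from 1 to 0, with Ccnd1 at -1.23. Between tissues the number passing was 9 and ranged from 8 to 10; with 1 library left out it was 9 or 10, Ccnd2 being gained in 8 of those fits, and it was also gained with upper-quartile scaling (-0.61). No other count of the 10 genes moved. Direction turned for Ccnd2 alone: its liver genotype ratio went from 0.20 to -0.12 without the libraries with islet transcripts, and its diet ratio in Ins2+/- muscles from 0.87 to -0.52 with limma-voom; the cause was not tested. With the replicate number as a block, the Ccnd1 ratios were -0.80 averaged and -1.20 in Ins2+/- livers, and no count of the 10 genes changed. Over all genes, the 28 that passed for liver diet averaged over genotypes became 207 with DESeq2, 292 with limma-voom and 8 without the libraries with islet transcripts, and 17 to 110 with 1 library left out. The 5 that passed in Ins2+/- livers became 131, 553 and 0, and 3 to 81 with 1 left out. A fit of the compared groups alone was not run for averaged or interaction comparisons. Low counts of Myc and Cdkn1a in liver and Cdk6 in muscle limit what could be detected.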
